A study of Mus musculus with 6 samples.

Results

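The 10 genes described here are markers used to recognise mesenchymal and skeletal progenitor cells: the transcription factor genes Prrx1 and Prrx2, the growth factor receptor genes Pdgfra and Pdgfrb, the filament gene Nes, and the surface protein genes Eng, Mcam, Thy1, Cd200 and Itgav. They were taken by symbol from a table of 23170 genes, and all 10 were found. The RNA was isolated from bone lying under the joint surface of the mandibular condyle in wild type mice. The libraries, 3 for each group, followed partial discectomy, in which part of the disc of the temporomandibular joint is removed to bring on joint degeneration, or a sham operation. Surgery was unilateral, bone was taken from the operated joint, and the age label of both groups reads P6w+PO2w with its prefixes unexplained. Sample descriptions carry LPD for partial discectomy and Rctrl for sham, and if these letters mark a further difference, it cannot be told apart from the operation.

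Mesenchymal progenitors are the cells from which osteoblasts, cartilage cells, marrow stroma and fat cells arise. No single protein defines them. In mice, skeletal stem cells are sorted as cells that carry the alpha V integrin chain and CD200 but lack THY1 and endoglin, after blood and endothelial cells have been removed. Marrow stromal progenitors are also recognised by PDGF receptors, nestin, endoglin and MCAM, which cells of the vessel wall share. PRRX1 and PRRX2 mark the mesenchyme of limb and face, and the lower jaw fails to form normally in mice that lack both. All 10 genes are also expressed outside progenitors, so a level in whole bone is not a count of progenitor cells, and fewer cells of a type cannot be told apart from less RNA per cell.

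Values are normalized expression values in an unnamed unit with a smallest value of 1, called the floor and read here as an offset. Levels are not compared between genes, as it is not known whether the unit takes length into account. Each ratio divides the mean after partial discectomy by the mean in sham and comes with the authors' 95% limits, and a gene was called at an adjusted p under 0.05. The median log2 ratio of all genes was 0.08, and the summed group means differed by a log2 ratio of 0.13. For single libraries the authors' deposited table gives the highest value of the 6, without naming its library, and the geometric mean. Together with both group means these numbers fix, for many genes, in which group the highest library must lie, and they bound what the other libraries can have been. Such bounds are limits that the numbers impose and not error bars. Mean levels above the floor were at least 5 for all 10 genes.

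None of the 10 markers was called after partial discectomy. Over all genes, 2.28% were called higher and 0.104% lower in the authors' deposited table, so that few calls are to be expected in a list of 10. By the unadjusted p, 1 member passed 0.05, Prrx2, and it was lower, where 10.9% of all genes passed as higher and 3.31% as lower in the authors' deposited table. The members split evenly, with 5 ratios above 1 and 5 below, against 62.7% of all genes above 1. Their median log2 ratio was -0.058, against 0.08 for all genes. The homeobox pair had the lowest ratios, both PDGF receptors and Thy1 lay closer to 1 from below, and Nes, Cd200, Itgav, Mcam and Eng lay above 1. The 95% limits of 8 members included equal means in the authors' deposited table, while those of Prrx1 and Prrx2 lay below, as they did for 3.59% of all genes.

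**Figure D1:**
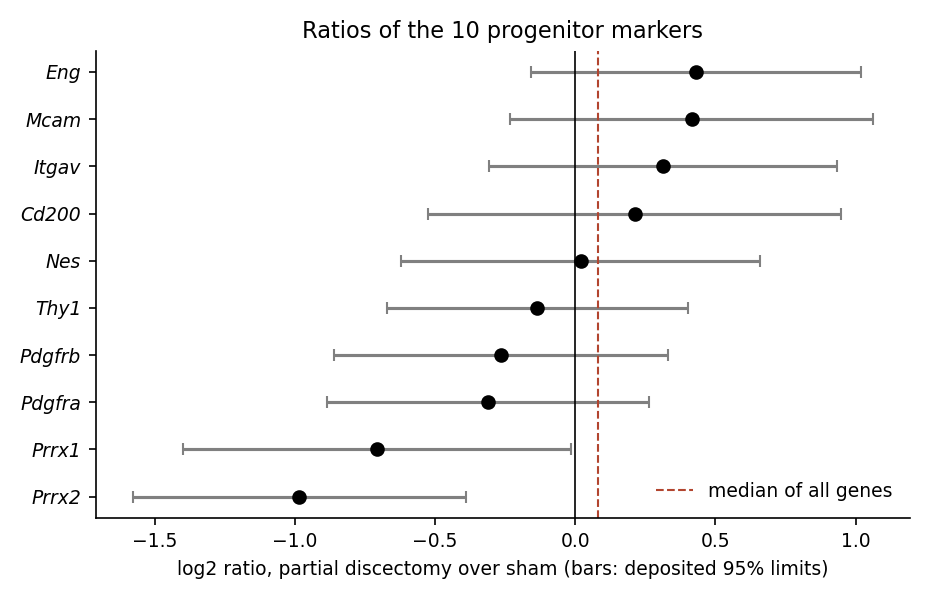
Log2 ratio of partial discectomy over sham for each of the 10 markers (points), with the authors' deposited 95% limits (bars), ordered by ratio; the solid line marks equal means and the dashed line the median of all genes, 0.08. Prrx2 at -0.98 and Prrx1 at -0.71 are the members whose limits lie below equal means.

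The paralogs Prrx1 and Prrx2 encode related homeodomain proteins that bind DNA and act in the mesenchyme of face and limb. Prrx1 (chromosome 1, minus strand, 163245119 to 163313711 on mm10) averaged 251 in the partial discectomy libraries, against 410 in the sham libraries, in the authors' deposited table. The highest of the 6 Prrx1 values, 571, must be that of a sham library, which held 46.5% of the sham total, where an even spread gives 33.3%. After partial discectomy the highest library lay between 253 and 321, and in sham the lowest library lay between 253 and 329. Every partial discectomy library was thus below the top sham library by a wide margin, but the numbers do not settle whether the groups overlapped. The ratio of Prrx1 was 0.612, with 95% limits of 0.379 and 0.989, in the authors' deposited table. Its p was 0.0583 unadjusted and 0.372 adjusted by the authors' deposited table, so that limits and p fall on different sides of their thresholds and the gene was not called. Without its highest library the ratio was 0.762.

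Prrx2 (chromosome 2, plus strand, 30834972 to 30881252) averaged 6.27 in the partial discectomy libraries, against 12.4 in the sham libraries, per the authors' deposited table. Its highest library, at 17.0, was again a sham library. After partial discectomy every library lay between 4.77 and 7.90, and in sham every library lay between 7.91 and 17.0. The groups of Prrx2 therefore cannot overlap, with at least 1.10 between the lowest sham library and the highest partial discectomy library. Among the 10 markers this holds for Prrx2 alone, and among all genes for 3.33% that were lower and 10.2% that were higher after partial discectomy. The ratio of Prrx2 was 0.506, with 95% limits of 0.335 and 0.763, per the authors' deposited table. Its p was 0.00518 unadjusted and 0.113 adjusted by the authors' deposited table, so that Prrx2 was not called. Of the 8635 genes with a ratio below 1, 95 had a smaller p. Without the highest sham library the ratio was 0.621, and with the floor subtracted from both means it was 0.462.

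**Figure D2:**
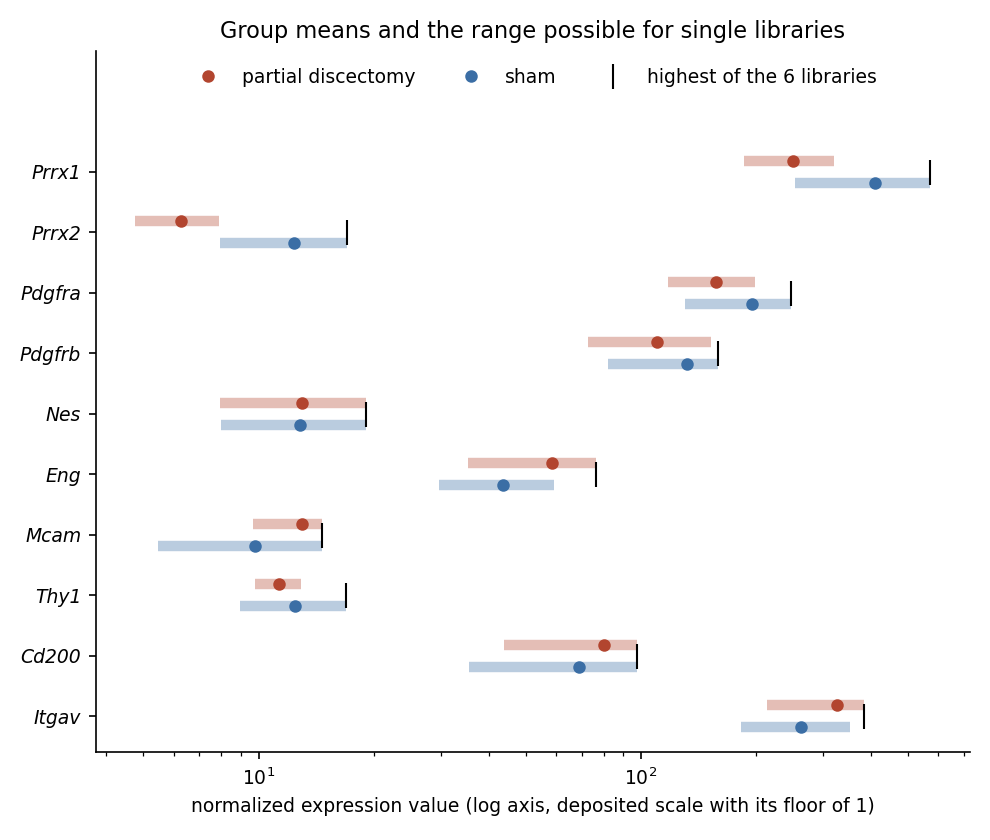
Group means of each marker (points, partial discectomy above sham) on a log axis in the deposited unit; bars span every value a single library of that group can have had, and the black tick is the highest of the 6 libraries. Of the 10 markers only the bars of Prrx2 stand fully apart; levels are not comparable between genes.

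Reads of near-identical genes can be counted for the wrong one, so the transcripts of the Prrx pair were compared. Across all their GENCODE M21 transcripts the longest run of letters present in both was 19 bases, in coding sequence of each gene (chr1:163248325-163248343, minus strand, and chr2:30880845-30880863, plus strand). It is shown because a read longer than this from either gene matches no transcript of the other letter for letter.
Prrx1 and Prrx2 shared run: tcaacatggccaacagcat
For the receptors Pdgfra and Pdgfrb the longest shared run was 21 bases. Overlapping genes are another source of shared reads, as it is not known whether counting used strand. Prrx1 overlaps Gm20471 on the other strand, exon included, which averaged 3.59 in partial discectomy libraries and 5.87 in sham libraries with a ratio of 0.612 (adjusted p = 0.533), by the authors' deposited table. Gm37644, on the same strand within Prrx1, averaged 12.6 in partial discectomy libraries and 23.2 in sham libraries with a ratio of 0.542 (adjusted p = 0.435), by the authors' deposited table. Neither was called, and both ratios were near that of Prrx1. The 5 measured genes that overlap Pdgfra, Eng, Mcam or Itgav had ratios between 0.808 and 1.15 by the authors' deposited table, and none was called. Prrx2, Pdgfrb, Nes, Thy1 and Cd200 have no overlapping gene in GENCODE M21.

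The promoters of the pair, taken as 250 bases before to 50 bases after the RefSeq start, differ in base composition, and they are printed since these genes had the lowest ratios of the 10. The RefSeq start of Prrx2 lies inside the span that the deposited table gives for the gene. Capitals mark the GC box letters GGGCGG or their reverse complement CCGCCC. The letters TATAAA and CCAAT, also searched on both strands, occur in neither.
Prrx1 promoter, chr1:163313601-163313900, minus strand: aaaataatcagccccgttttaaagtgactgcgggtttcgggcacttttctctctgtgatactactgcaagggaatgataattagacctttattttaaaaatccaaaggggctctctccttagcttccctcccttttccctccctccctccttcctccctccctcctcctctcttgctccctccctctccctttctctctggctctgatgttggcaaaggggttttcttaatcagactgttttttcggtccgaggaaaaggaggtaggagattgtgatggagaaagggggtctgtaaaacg
Prrx2 promoter, chr2:30845117-30845416, plus strand: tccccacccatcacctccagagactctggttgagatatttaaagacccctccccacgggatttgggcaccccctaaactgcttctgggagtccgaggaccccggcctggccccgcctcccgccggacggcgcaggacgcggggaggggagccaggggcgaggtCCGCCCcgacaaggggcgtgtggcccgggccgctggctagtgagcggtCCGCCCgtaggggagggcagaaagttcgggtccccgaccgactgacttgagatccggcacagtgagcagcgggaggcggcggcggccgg
The Prrx1 window had 47.7% G+C, 6 CG pairs and no GC box match, and the Prrx2 window 70.3% G+C, 28 CG pairs and 2 GC box matches. The median of 32851 mouse promoters of that length was 52.7% G+C with 7 CG pairs, and 35.7% of them hold the GC box letters, 13.6% the TATAAA letters and 37.4% the CCAAT letters. Promoters were at hand for 8 of the 10 markers, of which 5 hold the GC box letters (Prrx2, Nes, Mcam, Cd200 and Itgav), while none holds the TATAAA or CCAAT letters. A match of letters is a description and not a binding site.

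Pdgfra and Pdgfrb encode the alpha and beta receptor tyrosine kinases for platelet-derived growth factors, which drive growth and movement of mesenchymal cells; the alpha receptor marks fibroblast and progenitor cells and the beta receptor also pericytes. Pdgfra (chromosome 5, plus strand, 75152292 to 75198216) averaged 157 in the partial discectomy libraries, against 195 in the sham libraries, by the authors' deposited table. Its highest library, at 248, was a sham library. Single libraries lay within 118 to 200 after partial discectomy and within 131 to 248 in sham, and the groups must overlap. The ratio of Pdgfra was 0.806, with 95% limits of 0.541 and 1.20 and an adjusted p of 0.639, by the authors' deposited table. Pdgfrb (chromosome 18, plus strand, 61045150 to 61085062) averaged 110 in the partial discectomy libraries, against 132 in the sham libraries, by the authors' deposited table. Its highest library, at 160, also lay in sham, single libraries lay within 72.8 to 153 after partial discectomy and within 81.9 to 160 in sham, and here too the groups must overlap. The ratio of Pdgfrb was 0.833, with 95% limits of 0.551 and 1.26 and an adjusted p of 0.688, by the authors' deposited table. The receptors had nearly the same ratio, with limits on both sides of equal means. Without the highest sham library the ratios were 0.932 for Pdgfra and 0.929 for Pdgfrb.

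All 4 genes for the ligands of these receptors had ratios above 1 in the authors' deposited table, and none was called. Pdgfb, whose product binds both receptors, had a ratio of 1.60 and a p of 0.00980 before and 0.164 after adjustment, per the authors' deposited table. Pdgfa, whose product binds the alpha receptor, had a ratio of 1.50 and an adjusted p of 0.395, per the authors' deposited table. For Pdgfc and Pdgfd, ligand genes of the alpha and the beta receptor, the authors' deposited table held ratios of 1.22 and 1.29. Pdgfb is made by endothelial cells and by megakaryocytes, and the summed levels of both marker lists, given further on, were higher after partial discectomy; their part in the ligand values was not tested.

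The surface proteins by which mouse skeletal stem cells are selected, the alpha V integrin chain and CD200, both had ratios above 1 that were not called. Itgav encodes the chain that pairs with several beta chains to bind vitronectin and other matrix proteins (chromosome 2, plus strand, 83724397 to 83806917). It averaged 326 in the partial discectomy libraries, against 263 in the sham libraries, per the authors' deposited table. Its highest library, at 385, followed partial discectomy, and the groups must overlap, with single libraries within 214 to 385 after partial discectomy and 183 to 352 in sham. The ratio of Itgav was 1.24, with 95% limits of 0.807 and 1.91 and an adjusted p of 0.674, per the authors' deposited table. Without the highest library it was 1.13. Cd200 encodes a ligand that restrains myeloid cells through its receptor (chromosome 16, minus strand, 45382135 to 45409054). It averaged 80.0 in the partial discectomy libraries, against 69.1 in the sham libraries, per the authors' deposited table. The Cd200 groups must overlap, and the highest library, at 98.0, can have been in either. The ratio of Cd200 was 1.16, with 95% limits of 0.695 and 1.93 and an adjusted p of 0.788, per the authors' deposited table.

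Thy1 and Eng, by whose absence mouse skeletal stem cells are selected, had ratios on either side of 1. Thy1 encodes a lipid-anchored surface protein of fibroblasts, T cells and neurons (chromosome 9, plus strand, 44043384 to 44048580). It averaged 11.3 in the partial discectomy libraries, against 12.4 in the sham libraries, by the authors' deposited table. The Thy1 libraries after partial discectomy lay close together, within 9.79 to 12.9, inside the span of 8.95 to 16.9 possible in sham, and the groups must overlap. The ratio of Thy1 was 0.911, with 95% limits of 0.628 and 1.32 and an adjusted p of 0.899, by the authors' deposited table. The highest library, at 16.9, was a sham library, and without it the ratio was 1.11, on the other side of 1. Eng encodes endoglin, a co-receptor for TGF-beta and BMP ligands that is abundant on endothelial cells (chromosome 2, plus strand, 32646595 to 32682670). It averaged 58.7 in the partial discectomy libraries, against 43.6 in the sham libraries, by the authors' deposited table. The highest Eng library, at 76.3, followed partial discectomy, and the groups must overlap, with single libraries within 35.4 to 76.3 after partial discectomy and 29.6 to 59.2 in sham. The ratio of Eng, the highest of the 10, was 1.35, with 95% limits of 0.897 and 2.02 and an adjusted p of 0.507, by the authors' deposited table. Without the highest library it was 1.15. Eng shares 61 bases at its end with Fpgs on the other strand, whose ratio was 1.15 by the authors' deposited table.

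Among the lists set beside these surface proteins, calls fell on 2 other alpha chains and 1 exclusion gene. None of the called genes is a beta chain, an endoglin partner or a CD200 receptor. Over all 8 companion lists 8.6% of genes were called, against 2.38% of all genes. Of 5 beta chains that pair with alpha V none was called. Itgb3, used by osteoclasts and platelets, had a ratio of 1.77 and an adjusted p of 0.315, and Itgb1, a widely used chain, one of 1.01, by the authors' deposited table. For Itgb5 and Itgb8 the ratios were 0.774 and 0.673 by the authors' deposited table. Of 12 other alpha chains 2 were called higher and none lower, with 7 ratios above 1 and 5 below. By the unadjusted p, 2 passed 0.05 as higher and 1 as lower, where 10.9% and 3.31% of all genes did. Itga4, a chain of blood cells, rose 3.27-fold with an adjusted p of 0.00937, and Itga2b, the platelet chain, rose 3.16-fold with an adjusted p of 0.0124, by the authors' deposited table. Both are known from blood cells. Of the 10 neutrophil, 9 erythroid, 9 megakaryocyte and 8 T cell markers measured, 8, 9, 7 and 2 were called higher. Itga2b is itself one of those megakaryocyte markers, and the part of those cells was not tested. Of 7 measured partners of endoglin none was called, and their median log2 ratio was 0.14. Tgfbr1, a TGF-beta receptor, and Tgfb1, a ligand, had ratios of 1.28 and 1.16, by the authors' deposited table. The co-receptor Tgfbr3 had a ratio of 0.804, and the ligand Tgfb3 one of 0.599 with an adjusted p of 0.237, by the authors' deposited table. Of 3 measured CD200 receptors none was called, and all 3 ratios were above 1. Their levels above the floor summed to 3.34 after partial discectomy and 1.45 in sham, with Cd200r4 within 0.05 of the floor in sham. Cd200r1, named after its value was seen, averaged 3.32 after partial discectomy and 1.95 in sham. Its ratio was 1.70 (p = 0.00706, adjusted p = 0.136) by the authors' deposited table. Of 4 genes whose proteins serve to exclude other cells in the sort, all had ratios above 1 and 1 was called higher. That gene was Ptprc, which encodes CD45 of blood cells, higher 3.64-fold with an adjusted p of 0.0107, by the authors' deposited table.

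Mcam and Nes mark cells around vessels and in marrow stroma. Mcam encodes an adhesion protein of endothelial cells, pericytes and stromal progenitors (chromosome 9, plus strand, 44134469 to 44142728, at 85.9 kb from Thy1). It averaged 13.0 in the partial discectomy libraries, against 9.77 in the sham libraries, in the authors' deposited table. The highest Mcam library, at 14.7, can have been in either group, and whether the groups overlapped is not settled. The ratio of Mcam was 1.33, with 95% limits of 0.852 and 2.09 (adjusted p = 0.487), all in the authors' deposited table. Nes encodes nestin, an intermediate filament protein of neural and perivascular progenitors (chromosome 3, plus strand, 87971078 to 87980452). It averaged 13.0 in the partial discectomy libraries, against 12.9 in the sham libraries, in the authors' deposited table. The Nes groups must overlap, with every library of either group between 7.91 and 19.1. The ratio of Nes was 1.01, with 95% limits of 0.650 and 1.58 (adjusted p = 0.912), all in the authors' deposited table. Of 4 other intermediate filament genes none was called, with 3 ratios below 1 and 1 above. Vim, the main filament of mesenchymal cells, had a ratio of 0.732, by the authors' deposited table. Synm, a partner of other filament proteins, had a ratio of 0.658 (p = 0.0204, adjusted p = 0.232) by the authors' deposited table. Its groups cannot overlap, which holds on the lower side for 3.33% of all genes. Des, the muscle filament, had a ratio of 0.467 with an adjusted p of 0.732, by the authors' deposited table. The ratio above 1 was that of Gfap, the astrocyte filament, named after its value was seen, at 1.66 (p = 0.0293, adjusted p = 0.276) by the authors' deposited table. Gfap averaged 1.79 after partial discectomy and 1.08 in sham, near the floor of 1, and its groups must overlap.

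Several members are also made by cells of the vessel wall, and markers of those cells were set beside them. Of 15 endothelial markers none was called and 6 were higher at an unadjusted p under 0.05, where 10.9% of all genes were. All 15 ratios were above 1, against 62.7% of all genes, with a median of 0.57 on the log2 scale. Their summed level above the floor was 318 after partial discectomy and 218 in sham. Eng and Mcam had log2 ratios of 0.43 and 0.41. Of 11 pericyte and smooth muscle markers none was called, the median log2 ratio was 0.01, and the summed level was 433 after partial discectomy and 541 in sham. Their ratios were above 1 for 6 and below 1 for 5, named here after their values were seen. Below 1 were the muscle genes Acta2 (0.538), Myh11 (0.536), Tagln (0.566) and Des (0.467), and Cspg4 (0.678), by the authors' deposited table. The other 6 ranged from 1.01 for Cnn1, also a smooth muscle gene, to 1.25 for Kcnj8, by the authors' deposited table. Most of the difference in the sum lay in Cspg4, which averaged 180 after partial discectomy and 266 in sham, by the authors' deposited table. The part of the vessel cells in the values of Eng, Mcam, Nes and Pdgfrb was not tested. For Thy1, the T cell markers summed to 14.0 after partial discectomy and 6.41 in sham, with 2 of 8 called higher, Cd2 and Lck, named after their values were seen, and Cd3g within 0.05 of the floor in sham. The neural markers summed to 7.32 after partial discectomy and 6.37 in sham, with none of 7 called, 2 ratios above 1 and 5 below, and a median log2 ratio of -0.10. The part of either cell type in the value of Thy1 was not tested.

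**Figure D3:**
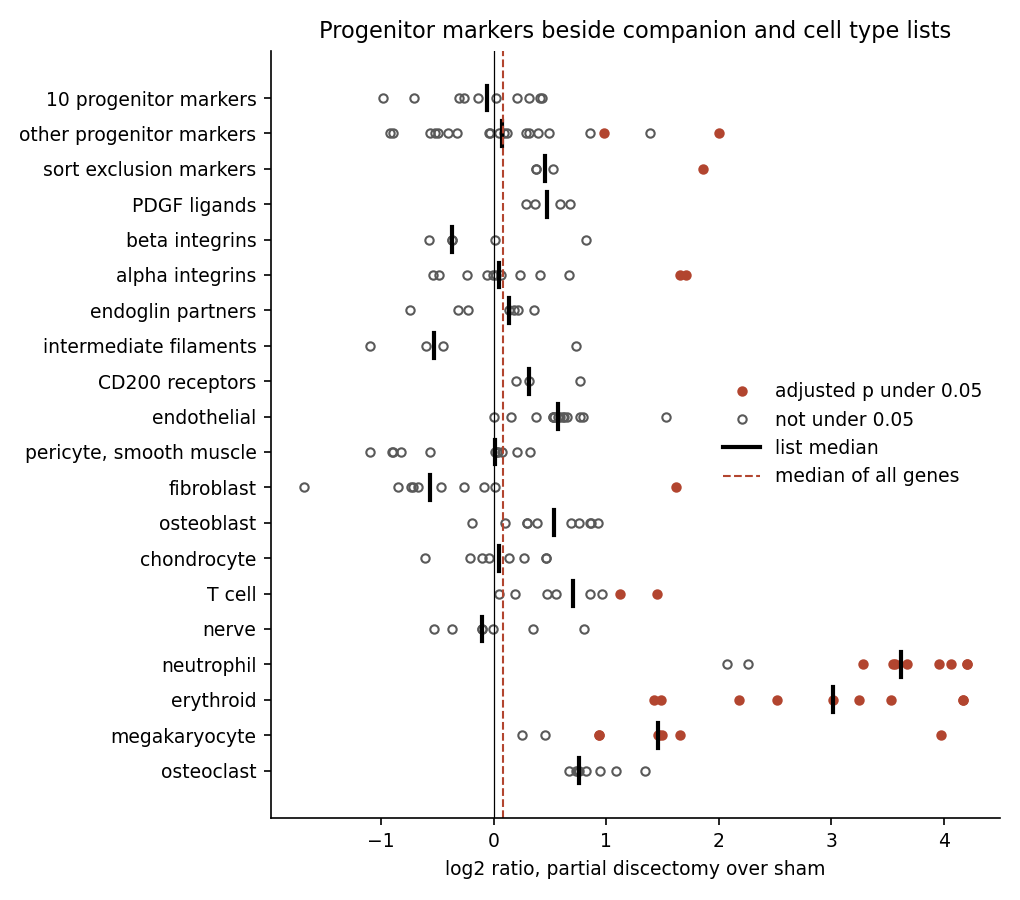
Log2 ratio of partial discectomy over sham for every measured gene of each list (circles, filled where the adjusted p was under 0.05), with list medians (black bars) and the median of all genes (dashed line). The 10 markers span -0.98 to 0.43 with no filled circle, while the neutrophil and erythroid lists have medians of 3.62 and 3.02.

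Other markers of progenitors and stroma held some calls. Of 20 such genes 2 were called higher and none lower, with a median log2 ratio of 0.07 and 11 ratios above 1. Over all genes, 2.28% were called higher and 0.104% lower. By the unadjusted p, 5 passed 0.05 as higher and 2 as lower, where 10.9% and 3.31% of all genes did. The 2 lower genes, named after their values were seen, were Acta2, the smooth muscle actin, and Axin2, a target of WNT signalling. Their ratios were 0.538 (p = 0.00694, adjusted p = 0.135) for Acta2 and 0.530 (p = 0.0370, adjusted p = 0.306) for Axin2 by the authors' deposited table. As with Prrx2 the groups of both cannot overlap, which holds on the lower side for 3.33% of all genes. The highest Axin2 library, at 34.1, lay in sham, where the mean was 20.8. The higher genes not called were Vcam1, Grem1 and Alcam, also named after their values were seen. Their ratios were 2.63 (p = 0.0101, adjusted p = 0.166), 1.81 (p = 0.0164, adjusted p = 0.213) and 1.41 (p = 0.0389, adjusted p = 0.315) by the authors' deposited table. The groups of Alcam cannot overlap either, nor can those of the called genes Cxcl12 and Ebf3, while for Vcam1 and Grem1 this is not settled. On the higher side it holds for 10.2% of all genes. These genes were named for a small p, so groups that stand apart are no separate result. Cxcl12, the chemokine that keeps blood stem cells in marrow, averaged 323 in partial discectomy libraries and 80.5 in sham libraries, a 4.02-fold rise with an adjusted p of 0.0473, by the authors' deposited table. Ebf3, a transcription factor of marrow stroma, averaged 28.9 in partial discectomy libraries and 14.7 in sham libraries, a 1.97-fold rise with an adjusted p of 0.0208, by the authors' deposited table. Over the 58 genes of all 8 companion lists, 5 were called higher and none lower, a share of 8.6% against 2.38% of all genes. Whether the 10 markers differ from these genes was not tested.

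Markers of the labelled tissue were present, with bone, cartilage and fibroblast genes in both groups. The 10 osteoblast markers summed to 60732 above the floor after partial discectomy and 47113 in sham, with none called, a median log2 ratio of 0.53 and 9 ratios above 1. Col1a1, at 34180 and 27783, and Col1a2, at 20060 and 15384, made up most of these sums. Their ratios had 95% limits of 0.134 to 11.3 and 0.229 to 7.42, by the authors' deposited table. Sums of other lists can likewise rest on few genes of high level. The 8 chondrocyte markers summed to 5539 after partial discectomy and 4563 in sham, with none called, 4 ratios above 1 and 4 below, and a median log2 ratio of 0.05. The 10 fibroblast markers, from cells that also express Prrx1, Pdgfra and Thy1, summed to 12598 after partial discectomy and 15628 in sham. Of these 1 was called higher, Pi16, named after its value was seen, and 8 had ratios below 1, and their median log2 ratio was -0.57. Blood cell markers stood further apart. The 10 neutrophil markers summed to 1336 after partial discectomy and 101 in sham, with 8 called higher. The 9 measured erythroid markers summed to 240 after partial discectomy and 12.7 in sham, all called higher, and the 9 megakaryocyte markers to 43.8 after partial discectomy and 4.87 in sham, with 7 called higher and Gp6, Treml1 and Tubb1 within 0.05 of the floor in sham. Osteoclasts carry the alpha V chain with ITGB3. The 9 osteoclast markers, Itgb3 itself among them, summed to 3333 after partial discectomy and 1764 in sham, with every ratio above 1 and none called. At an unadjusted p under 0.05, 4 of them were higher, where 10.9% of all genes were. The part of these cell types in the ratios of the members, lower or higher, was not tested.

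**Figure D4:**
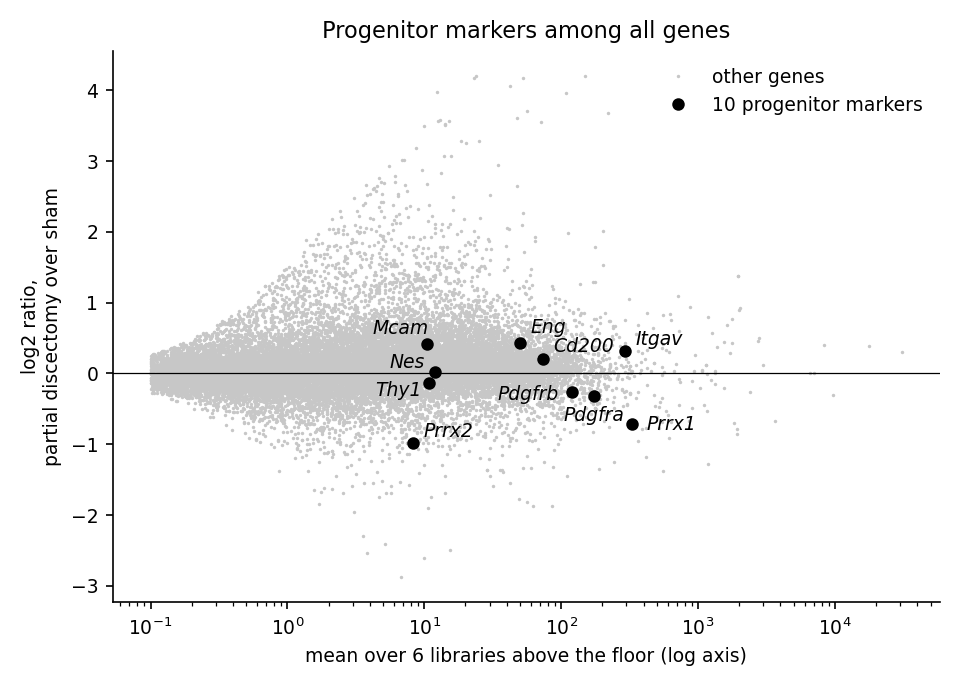
Log2 ratio of partial discectomy over sham against the mean of the 6 libraries above the floor (log axis) for the 10 markers (black, named) and all other genes with a mean of at least 0.1 above the floor (grey). Prrx2 and Prrx1 lie in the lower part of the cloud, with 0.6% and 1.7% of all genes below their log2 ratio.

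Set among all 23170 genes by log2 ratio, the markers covered much of the range. For Prrx2 0.6% of genes had a lower log2 ratio, for Prrx1 1.7%, for Pdgfra 8.3%, for Pdgfrb 10.5% and for Thy1 20.0%. The share was 40.4% for Nes, 69.3% for Cd200, 79.0% for Itgav, 85.2% for Mcam and 85.9% for Eng. Of all genes, 15911 had a mean of at least 1 above the floor, while all 10 markers had at least 5. The floor, read as an offset, draws the ratios of genes of low level toward 1, so ranks among genes of like level can differ. The highest library lay in sham for 5 members, the same 5 that had ratios below 1, after partial discectomy for Eng and Itgav, and in either group for the other 3. Over all genes it lay after partial discectomy for 44.6%, in sham for 21.9% and in either for 33.5%. The highest value tends to lie in the group of higher mean, so these placements largely restate the direction of the ratios. The table does not show whether the highest sham library was the same for all 5. Where its group was certain, the highest library held 39.3% to 46.5% of that group's total. Groups must overlap for 7 of the 10 members, against 61.7% of all genes, a share near the background.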

How the data were processed

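RNA of subchondral bone was sequenced in 3 partial discectomy and 3 sham libraries. Reads were processed with STAR 2.6.1d on mm10, per the submitters' processing notes; for counter, gene filter, normalization and model there is nothing to cite (not given in the sources used here). The authors deposited group means, totals, highest values and overall means as a normalized signal in an unnamed unit, for 23170 genes. The authors' deposited p-values come from an unnamed model, and the deposited adjusted p equalled a Benjamini-Hochberg adjustment over all genes. The ratio and its log2 value in the deposited table are partial discectomy over sham. The signed fold change and its 95% limits, deposited by the authors as a score with negative values, were turned into ratios here.

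No values per library were analysed, so that depth is unknown, no count test could be run, and there is no SD. The labels do not say whether libraries came from separate mice, so the p-values may measure technical spread. The description of 1 partial discectomy library and that of 1 sham library both begin with the number 6, and the labels do not say whether they share a mouse. The members and gene lists were chosen with earlier results of these data known. The text names all 10 members and, from each of 8 companion lists, its called genes or, where none was called, up to 4 genes of highest and lowest ratio with a mean of at least 5 above the floor.

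Limits on single libraries were computed with Python 3.11.15 and numpy 2.4.6. The 6 values had to give both group means, the highest value and the geometric mean of the table, with none under the floor of 1. The method was tested on simulated data. All 23170 genes had at least 1 solution. Promoter sequences are from RefSeq (GRCm38.p6) and transcripts from GENCODE M21. Gene positions are those of the deposited table, whose stop lies 1 base past the GENCODE M21 end for all 10 members.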

Additional observations from a re-analysis of the deposited data

How the results depend on the processing

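No paired analysis was possible because the table holds group means and no values per library; for the same reason no fit without each replicate was run. With p-values readjusted over the 15911 genes with a mean of at least 1 above the floor, or over the 10286 with at least 5, again 0 of 10 markers were called, with adjusted p of 0.0982 and 0.112 for Prrx2 and 0.348 and 0.368 for Prrx1. Called by the 95% limits instead, 2 markers, Prrx1 and Prrx2, were lower, whether set against equal means, the median log2 ratio of all genes or that of the summed group means; limits lay below equal means for 3.59% of all genes. The median log2 ratio of the members was -0.058, and -0.063 with the floor subtracted, and -0.14 and -0.19 relative to the median of all genes and to the summed means. Nes, near equal means, turned to -0.061 and -0.11 on the log2 scale under these centres, and Thy1 turned to 0.15 without its highest library. The other members kept their direction under every setting that gave a value; the group of the highest library is not certain for Nes, Mcam and Cd200, which have no such value. Without the highest library Prrx1 had a log2 ratio of -0.39, against -0.71. Taking out the highest value of a group must lower the mean of that group. Of the 7 members with such a value, 6 came nearer to equal means and Thy1 crossed to the other side. Depth is unknown, and the limits of the 8 other markers include equal means, and the limits of all 10 have a median half-width of 0.61 on the log2 scale.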
